A study of Mus musculus with 2 samples.

Results

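The genes described here are 40 cell cycle genes, 18 of the S phase set and 22 of the G2/M set, measured in single YFP+ cells of mouse thymus. They were taken by symbol, and all 40 were found among the 32285 features of the deposited matrices. The S set held Rrm1, Rrm2, Pclaf, Pcna, Tyms, Mcm2 to Mcm7, Gins2, Cdc6, Cdt1, Ung, Uhrf1, Tk1 and Dut. The G2/M set held Mki67, Top2a, Birc5, Ccna2, Ccnb1, Ccnb2, Cdk1, Cdc20, Cdca8, Cenpe, Cenpf, Cenpa, Aurka, Aurkb, Bub1, Plk1, Nusap1, Tpx2, Ube2c, Hmgb2, Tubb4b and Kif11. The control library came from 2 Tbx21Cre Rosa26-YFP+ mice and the cKO library from 2 Tbx21Cre Ets1F/F Rosa26-YFP+ mice, pooled within each genotype. Both genotypes therefore carried the Tbx21Cre transgene and the YFP reporter, and they differed in the floxed allele of Ets1, the gene of a transcription factor of the ETS family. YFP marks cells in which the Cre was active at some point, so the sort takes in any cell type with a history of Tbx21 (T-bet) promoter activity. The samples are titled as thymic iNKT1 cells, invariant natural killer T cells that express T-bet. The labels give no age or sex for the mice. With 1 library per genotype there is no replicate and no test, and every interval below is a 95% interval for counting error alone.

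Cells copy their DNA in S phase and divide it in mitosis, after a gap called G2. Genes of the S set make the replicative helicase, its loading factors, the sliding clamp and the enzymes of nucleotide supply, and are switched on through E2F factors as a cell leaves G1. Genes of the G2/M set make the mitotic cyclins and kinases, the spindle, the centromere and the ubiquitin ligase that ends mitosis. Many of them are held down in resting cells by the DREAM complex at CHR elements of their promoters. Such promoters often hold CCAAT elements too. In the thymus, proliferation is strong in early thymocytes and after receptor rearrangement, whereas mature innate-like T cells are for the most part resting.

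The promoters of the members hold the letters of these elements to different degrees, and 4 of them are printed here: Mki67 and Top2a as G2/M genes with the CHR and CCAAT letters, Mcm6 as an S gene with E2F letters, and Nusap1 because its level differed most between the libraries. Each run is the 250 bases before the annotated start in RefSeq on GRCm38.p6, read 5′ to 3′ on the gene's strand, and capitals mark matches to the motifs on either strand. They lie at chr7:135716380-135716629 (Mki67, minus strand), chr11:99024190-99024439 (Top2a, minus), chr1:128359706-128359955 (Mcm6, minus) and chr2:119618048-119618297 (Nusap1, plus).
Mki67: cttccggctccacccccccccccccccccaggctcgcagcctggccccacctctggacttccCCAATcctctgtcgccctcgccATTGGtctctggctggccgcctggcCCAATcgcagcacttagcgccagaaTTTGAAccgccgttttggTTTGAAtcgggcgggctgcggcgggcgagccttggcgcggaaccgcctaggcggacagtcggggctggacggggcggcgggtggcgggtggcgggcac
Top2a: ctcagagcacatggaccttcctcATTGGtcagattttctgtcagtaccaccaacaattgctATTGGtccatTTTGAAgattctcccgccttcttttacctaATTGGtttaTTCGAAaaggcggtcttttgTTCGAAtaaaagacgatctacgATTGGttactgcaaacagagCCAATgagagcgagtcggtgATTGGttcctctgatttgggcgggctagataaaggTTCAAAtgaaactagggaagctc
Mcm6: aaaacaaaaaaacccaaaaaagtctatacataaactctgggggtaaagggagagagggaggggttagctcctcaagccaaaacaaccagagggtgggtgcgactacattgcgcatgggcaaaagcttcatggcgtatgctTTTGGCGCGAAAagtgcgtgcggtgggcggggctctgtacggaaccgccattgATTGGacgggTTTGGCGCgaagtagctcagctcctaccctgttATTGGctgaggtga
Nusap1: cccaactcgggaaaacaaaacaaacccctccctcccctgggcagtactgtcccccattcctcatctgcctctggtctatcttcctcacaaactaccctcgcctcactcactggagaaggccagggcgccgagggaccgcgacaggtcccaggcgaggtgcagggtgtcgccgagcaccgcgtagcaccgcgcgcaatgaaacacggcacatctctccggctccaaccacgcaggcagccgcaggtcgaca
The letters taken as CHR were TTTGAA. A second spelling, TTCGAA, was counted as CHR too. The CCAAT motif is spelled by its name. The E2F letters were TTTCCCGC, TTTGGCGC, TTTGCCGC or TTTCGCGC. Mki67 had 2 CHR and 3 CCAAT matches, Top2a 4 and 6, and Mcm6 had 2 CCAAT and 3 E2F matches, of which a pair overlap. Nusap1 had no match to these letters in this window. A promoter was found for 35 of the 40 members. For 27 of the member entries the 20 bases after the start lay in a GENCODE vM21 transcript of the gene. A CHR match was present in 9 of 19 G2/M promoters and 2 of 16 S promoters, against 17.4% of all 27025 promoters of the same length. CCAAT was present in 17 of 19 G2/M and 10 of 16 S promoters, against 34.5% of all promoters. An E2F match was present in 1 of 19 G2/M promoters, that of Cdk1, and in 4 of 16 S promoters, those of Cdc6, Mcm5, Mcm6 and Mcm7, against 1.91% of all promoters. Both CHR and CCAAT stood in 47.4% of G2/M promoters, in 12.5% of S promoters and in 6.21% of all promoters. By the GENCODE coordinates the windows of Cdc6, Mcm7, Dut and Cdca8 lay inside the gene. The E2F matches of Cdc6 and Mcm7 thus lay after the GENCODE start. A match describes the letters and does not show that a factor binds there.

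The libraries held 10102 control and 11206 cKO barcodes with 35210431 and 39979742 UMIs (unique molecular identifiers, each standing for 1 captured transcript). The cells kept had 500 or more detected genes and no more than 10% mitochondrial UMIs, 7395 control cells (73.2% of barcodes) and 5903 cKO cells (52.7%), with median depths of 2666 and 5533 UMIs. Because depth differed, each cell was thinned to 1500 UMIs, which left out 2194 control and 1297 cKO cells as too shallow. Of all barcodes, 4.16% in the control and 13.1% in the cKO library had 500 genes or more but were over the mitochondrial limit. The libraries shared 29 barcodes, 14 of them among kept cells. Cells with a UMI of Cd3d, Cd3e or Cd3g are called CD3+ T cells here, and they made up 96.6% of kept control cells and 60.9% of kept cKO cells. Of these T cells thinning left out 2080 of 7143 in the control and 115 of 3597 in the cKO library. Of the T cells with a UMI of Cd8b1 it left out 173 of 907 and 6 of 621. The loss of T cells was thus mostly from the control library. Cells with a UMI of Epcam, an epithelial surface protein, made up 2.29% of control and 32.4% of cKO cells. In the cKO library these gut-led cells held all 10 gut epithelium markers at a summed 53770 CPM (UMIs scaled to a common total per class), with Fabp6, the ileal bile acid binding protein, at 16300.3 CPM, which goes against the labelled tissue. The 169 Epcam+ cells of the control library were mostly T cells, since 163 of them carried CD3 UMIs. Trav11, the invariant receptor segment of iNKT cells, was looked for on full counts in the CD3+ T cells with at least 1500 UMIs. It was detected in 165 control and 146 cKO cells, so the title's cell type could be checked in a small part of the cells only. The targeted gene Ets1 was lower in CD3+ T cells of the cKO library, with 3815 UMIs in control cells, or 502 CPM (487 to 519), and 1044 in cKO cells, or 199.9 CPM (188 to 212). These are 3′ counts, and the position of the floxed exons is not in the labels, so Ets1 was not used to tell deleted from undeleted cells.

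In CD3+ T cells the S genes as a group stood at the same level in both libraries. Summed over the 18 S genes, the 5063 control cells reached 519 CPM and the 3482 cKO cells 516 CPM, a cKO/control ratio of 0.995 (0.947 to 1.05). The 22 G2/M genes stood at 716 and 697 CPM, a ratio of 0.97 (0.93 to 1.02). That G2/M sum is mostly Hmgb2, a chromatin protein that resting lymphocytes also make, with 64.0% of the control and 56.9% of the cKO UMIs, followed by Tubb4b, a beta tubulin, with 16.4% and 17.1%. The sums were therefore also taken without Hmgb2, Tubb4b and Dut, the dUTPase, and are called core S (17 genes) and core G2/M (20 genes). Core S stood at 452 and 451 CPM (ratio 0.998, 0.946 to 1.05). Core G2/M was higher in the cKO library, at 182 CPM (170 to 194) against 140 CPM (132 to 149), a ratio of 1.296 (1.19 to 1.42).

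The core G2/M difference in T cells turned around when the deepest cells were left out. Without the 5% of cells with the most UMIs in each library, above 11789 UMIs in the control and 13853 in the cKO library, the ratio was 0.868 (0.778 to 0.967). Of the cells with at least 3 core G2/M UMIs, 19 of 91 control cells and 41 of 78 cKO cells lay above those limits. No doublet caller was run, and the part of doublets in these deep cells was not tested. The scale also bears on the size: the median log2 ratio over the 8033 features that reach 10 CPM in CD3+ T cells was 0.23, and the core G2/M log2 ratio of 0.37 stands against that median. With totals that leave out mitochondrial and ribosomal protein genes the core G2/M log2 ratio was 0.16 against a median of 0.01, and with median-ratio scaling it was 0.18 against 0.03. On those scales core S was lower in the cKO library, with log2 ratios of −0.22 and −0.19 in place of −0.00.

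A cell was given a call where it held at least 3 UMIs of a list among its 1500. T cells held a mean of 0.679 core S UMIs in the control and 0.677 in the cKO library, and 0.210 and 0.273 core G2/M UMIs, so some cells reach 3 core S UMIs by sampling alone, and a core S call does not by itself mark a cell in S phase. Core S calls were less frequent in the cKO library, in 266 control T cells (5.25%, 4.66 to 5.90) and 145 cKO T cells (4.16%, 3.53 to 4.88), a difference of −1.09 points (−1.98 to −0.17). The order of the core S shares turned around in cells thinned to 3000 UMIs, where it was 11.1% and 12.5%. Core G2/M calls were made in 91 control T cells (1.80%, 1.45 to 2.20) and 78 cKO T cells (2.24%, 1.77 to 2.79), a difference of 0.44 points (−0.16 to 1.08) whose interval takes in 0. With the 3 broadly expressed genes included, the S share was 6.48% and 5.11% and the G2/M share 9.05% and 8.24%. The share of T cells with no core G2/M UMI at all was 89.2% and 87.3%. Cells with at least 10 such UMIs were rare in both libraries, 13 of 5063 and 16 of 3482.

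More of the cKO cells with a core S call also had a G2/M call. In the control library 46 T cells had both calls, 220 had core S alone and 45 had core G2/M alone. In the cKO library 47 had both, 98 had core S alone and 31 had core G2/M alone. Of cells with a core S call, 17.3% of control and 32.4% of cKO cells thus also had a G2/M call. Of cells with a core G2/M call, 50.5% (39.9 to 61.2) of control and 60.3% (48.5 to 71.2) of cKO cells also had a core S call. The libraries differed most in the cells with core S alone, and the difference has no test.

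Of the 40 members, 21 reached 10 CPM in the higher library in CD3+ T cells, 14 of 18 S genes and 7 of 22 G2/M genes, and the other 19 lie too low for the size rule. That rule asks for a ratio of at least 1.5 in either direction, 10 CPM in the higher library and an interval that leaves out 1. It was met by 1 member higher in cKO, Nusap1, and by 1 lower, Cdt1, whereas 25.6% of all 8033 features met it, 20.2% as higher and 5.39% as lower. The split of those features moves with the scaling: 78.9% of them were higher here, 53.4% with totals lacking mitochondrial and ribosomal protein genes and 55.4% with median-ratio scaling. The interval lay above 1 for 7 members that reach the floor (Pclaf, Pcna, Tyms, Mki67, Top2a, Birc5 and Nusap1) and below 1 for 4 (Rrm1, Mcm5, Cdt1 and Hmgb2), against 44.9% and 12.8% of all features, 57.7% in sum. The S genes had a median log2 ratio of −0.10 and the G2/M genes one of 0.41 over members at the floor, beside 0.23 over all features. Counting all members, 12 of 18 S ratios were below 1 and 18 of 22 G2/M ratios were above 1, though most of the G2/M intervals include 1. The median feature lay above 1 too, at the log2 ratio of 0.23, and the share of all features above 1 was not counted. The 18 ratios are thus not read as a trend of the G2/M genes.

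**Figure D1:**
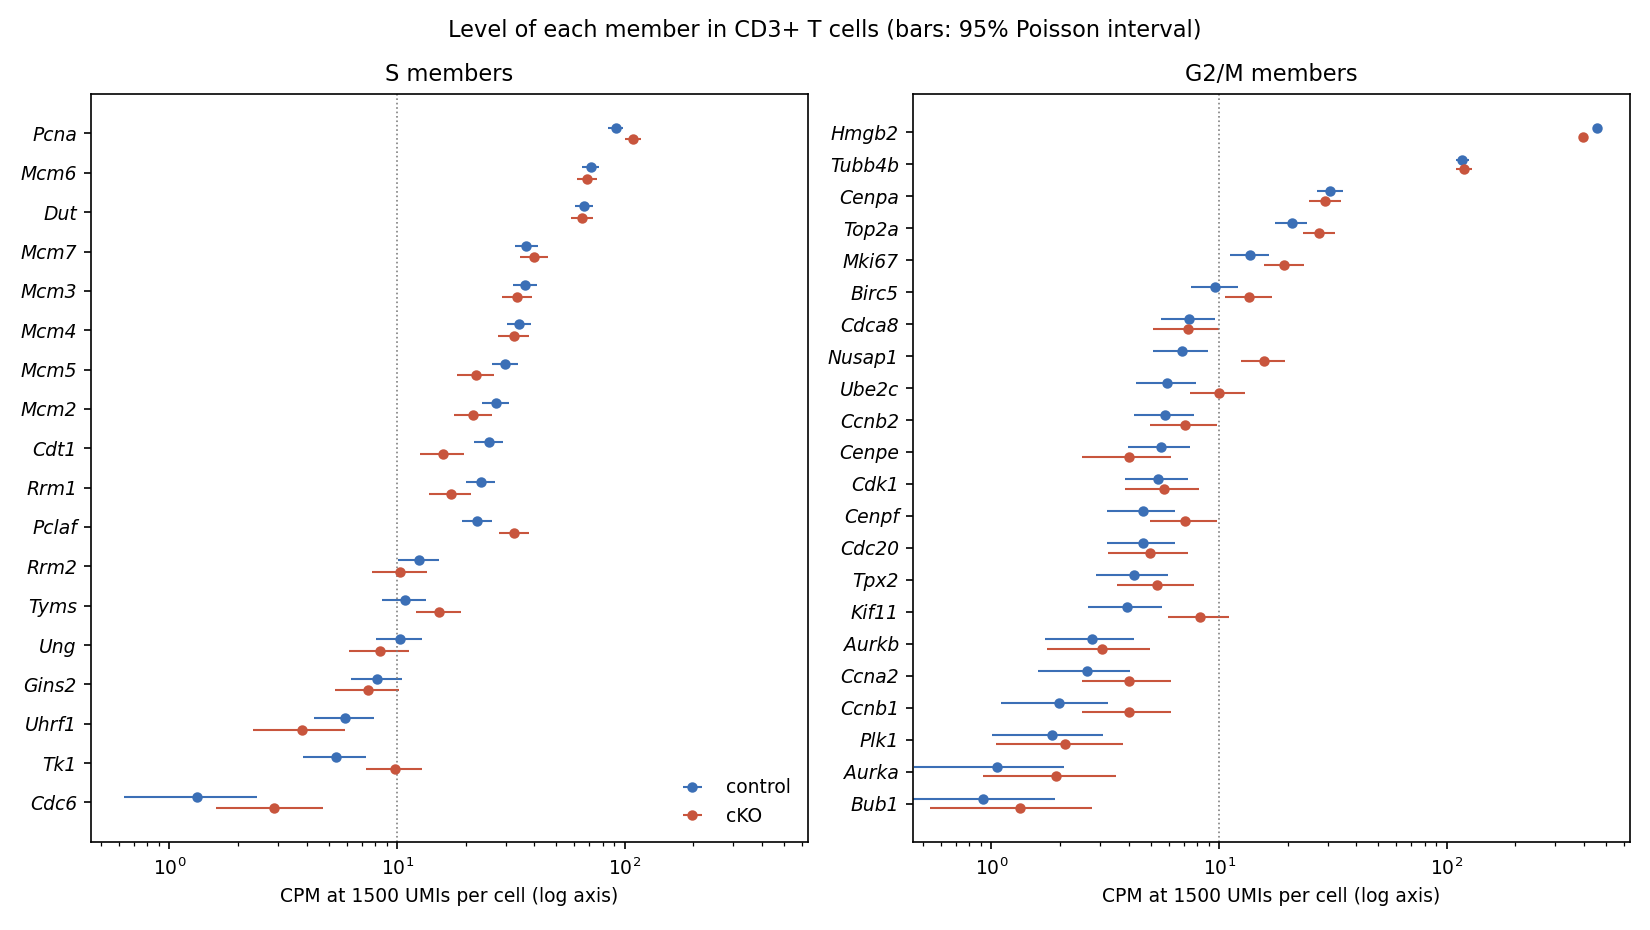
Level of each member in CD3+ T cells of the control and cKO libraries, in CPM at 1500 UMIs per cell on a log axis, with 95% Poisson intervals and a dotted line at 10 CPM. Most S members lie above the line and most G2/M members below it, Hmgb2 stands at 458 and 396 CPM, and Nusap1 and Cdt1 differ most in ratio between the libraries among members at the floor.

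Among the licensing and helicase genes of the S set, Cdt1 was the one past the size rule, and it was lower in the cKO library. Cdt1, which loads the helicase onto origins (chromosome 8, 122568015 to 122573554, plus strand), had 192 UMIs in control and 83 in cKO T cells, 25.3 and 15.9 CPM, a ratio of 0.63 (0.48 to 0.82). With another random thinning the ratio was 0.669 and no longer past 1.5-fold, with 181 and 83 UMIs. Cdc6, its partner in loading, had 10 and 15 UMIs, a ratio of 2.15 with a wide interval (0.92 to 5.43). The helicase subunits Mcm2 to Mcm7 spanned ratios from 0.75 for Mcm5 (29.8 to 22.2 CPM, 0.59 to 0.94) to 1.08 for Mcm7 (37.0 to 40.02 CPM, 0.90 to 1.298). Mcm6 stood at 70.8 and 68.4 CPM and Mcm2 at 27.1 and 21.6 CPM. Gins2, a subunit of the GINS complex that completes the helicase, stood at 8.16 and 7.47 CPM. None of these 6 Mcm genes was higher in cKO by an interval that leaves out 1.

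The clamp and nucleotide genes were split. Pcna, the sliding clamp, was detected in 12.3% of control and 14.3% of cKO T cells and stood at 91.3 and 109 CPM, a ratio of 1.19 (1.07 to 1.34). Pclaf, which binds Pcna, had 171 UMIs in each library, 22.5 CPM over the larger number of control cells and 32.7 CPM over the cKO cells, a ratio of 1.45 (1.17 to 1.81). Tyms, the thymidylate synthase, stood at 10.8 and 15.3 CPM (1.42, 1.03 to 1.95), and Tk1, the cytosolic thymidine kinase, at 5.40 and 9.76 CPM (1.80, 1.18 to 2.80), just under the 10 CPM floor. Of the ribonucleotide reductase subunits, Rrm1 stood at 23.3 and 17.2 CPM (0.74, 0.57 to 0.96), and the interval of Rrm2 includes 1, at 12.5 and 10.3 CPM (0.83, 0.58 to 1.17). Dut stood at 66.4 and 65.1 CPM, Ung, the uracil glycosylase, at 10.3 and 8.42 CPM, and Uhrf1, which keeps DNA methylation at replication forks, at 5.93 and 3.83 CPM (0.66, 0.36 to 1.12).

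Among the G2/M genes Nusap1, which binds spindle microtubules near chromosomes (chromosome 2, 119618298 to 119651244, plus strand), differed most. It had 52 UMIs in 43 control T cells and 82 UMIs in 65 cKO T cells, 6.85 and 15.7 CPM, a ratio of 2.28 (1.60 to 3.31), and it stayed past the size rule under 13 alternatives of cells, thinning, classes and scaling in T cells. At a floor of 20 CPM it lost the call, since its higher level is 15.7 CPM. The spindle motor Kif11 stood at 3.95 and 8.23 CPM (2.07, 1.28 to 3.44), and Tpx2, which nucleates spindle microtubules, at 4.21 and 5.36 CPM with an interval that includes 1. Mki67, the proliferation marker Ki-67, was detected in 73 control and 85 cKO T cells and stood at 13.7 and 19.3 CPM (1.41, 1.06 to 1.88). Top2a, topoisomerase II alpha, stood at 20.8 and 27.6 CPM (1.33, 1.05 to 1.67). The genes of the chromosomal passenger complex were Birc5 (survivin) at 9.61 and 13.6 CPM (1.41, 1.01 to 1.99), Cdca8 (borealin) at 7.37 and 7.28 CPM, and the kinase Aurkb at 2.77 and 3.06 CPM.

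The cyclins and mitotic kinases were near the limit of detection. Cdk1, the mitotic kinase, had 41 and 30 UMIs (1.07, 0.64 to 1.75), and its partners Ccnb1, Ccnb2 and Ccna2 had 15 and 21, 44 and 37, and 20 and 21 UMIs. The interval of the Ccnb1 ratio of 2.02 ran from 1.0003 to 4.24. Aurka had 8 and 10 UMIs, Plk1 14 and 11, and the checkpoint kinase Bub1 7 in each library. Of the genes that end mitosis, the ubiquitin-conjugating enzyme Ube2c stood at 5.93 and 9.96 CPM (1.68, 1.11 to 2.56), while the activator Cdc20 stood at 4.61 and 4.98 CPM. At the centromere, the histone variant Cenpa stood at 30.7 and 29.3 CPM, Cenpe at 5.53 and 4.02 CPM and Cenpf at 4.61 and 7.08 CPM, each with an interval that includes 1. Hmgb2 was lower in cKO, at 396 against 458 CPM (0.87, 0.82 to 0.91), and was detected in 37.1% against 43.1% of T cells, whereas Tubb4b stood at 117 and 119 CPM.

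**Figure D2:**
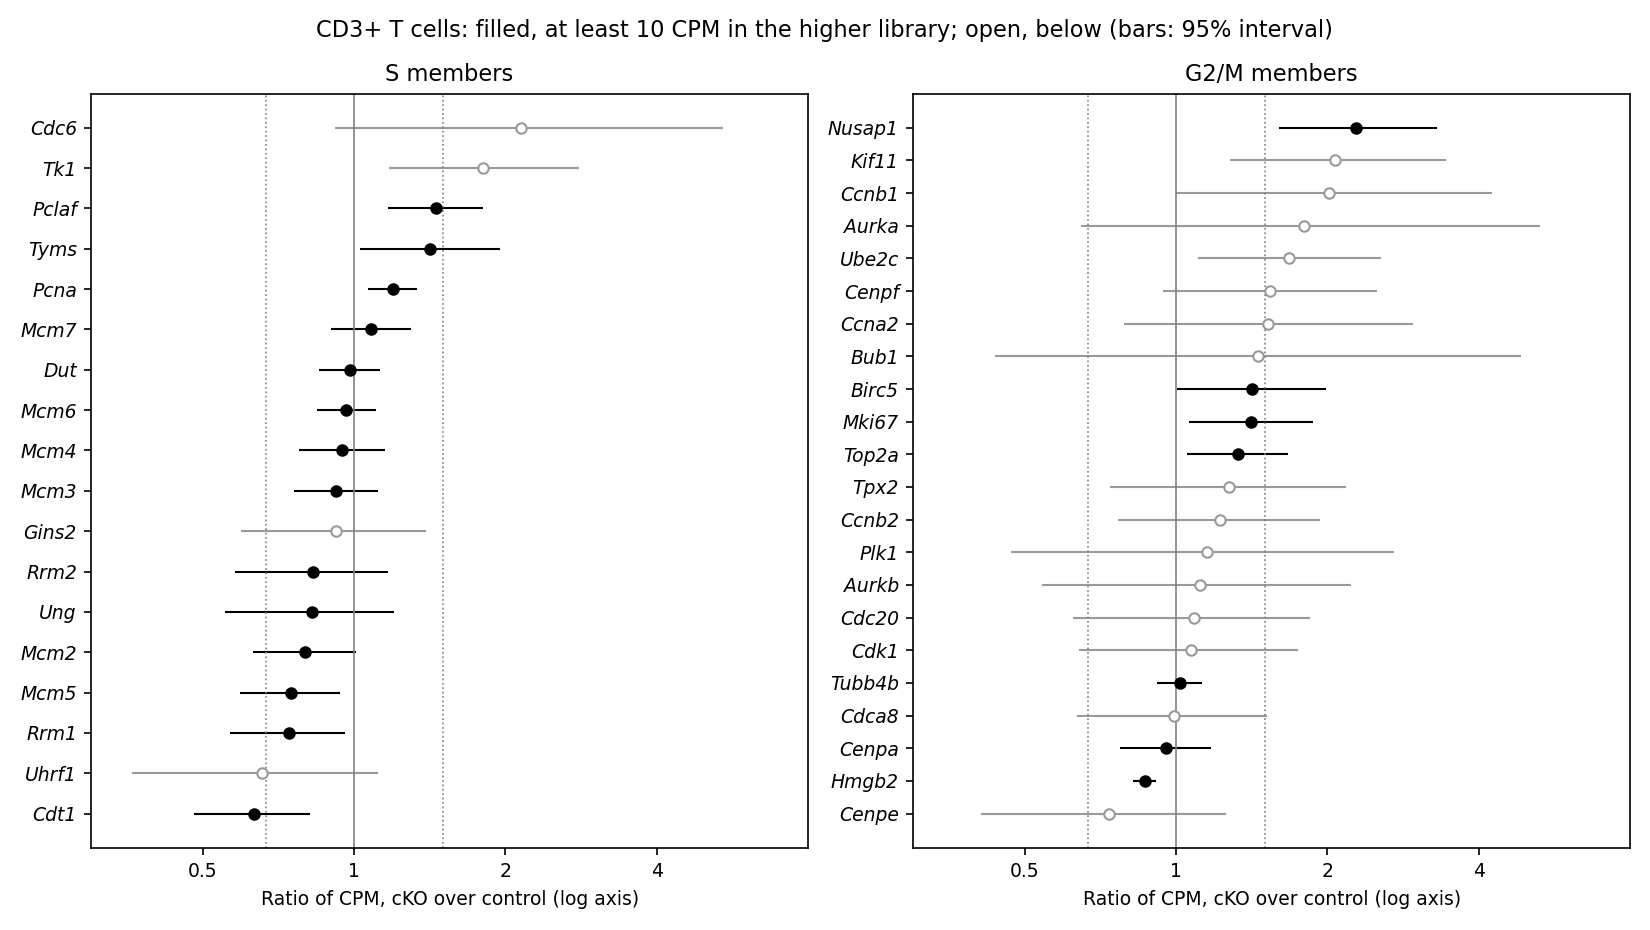
Ratio of CPM, cKO over control, for each member in CD3+ T cells on a log axis, with 95% intervals, filled points for members that reach 10 CPM and dotted lines at 1.5-fold. Nusap1 at 2.28 and Cdt1 at 0.63 are the 2 filled points beyond the lines whose intervals leave out 1, and 18 of 22 G2/M points lie to the right of 1. The median ratio of all features that reach 10 CPM, not drawn, is above 1 too.

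The members differed in how far their transcripts were gathered in cycling cells. For each member, its UMIs were counted in T cells that held at least 5 UMIs of the other core members, a group that made up about 3% of cells in both libraries (medians 3.08% and 2.93%). Of Mki67 UMIs 67.3% of control and 57.4% of cKO UMIs lay in those cells, and of Birc5 68.5% and 78.9%. Pclaf was the S gene most gathered in the control library, with 61.4% and 72.5%, and Rrm2 followed with 46.3% and 75.9%. The medians over the 22 G2/M genes were 54.0% and 57.3%, and those over the 18 S genes 17.5% and 20.5%. Most S transcripts therefore lay in cells without a cycling profile at this depth: Pcna had 9.67% and 13.5% there, Mcm4 8.81% and 11.2%, and Cdt1 6.25% and 12.05%. Cenpa, Hmgb2 and Tubb4b were the G2/M genes with the smallest parts, 9.01%, 14.4% and 8.88% in the control library.

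In the same measure Nusap1 was less gathered in the cKO library. In the control library 35 of its 52 UMIs (67.3%, 52.9 to 79.7) lay in such cells, and in the cKO library 34 of 82 (41.5%, 30.7 to 52.9). Most control Nusap1 UMIs thus lay within such cells and most cKO UMIs outside them. Hmgb2 went the other way, with 14.4% (13.2 to 15.6) in control and 22.1% (20.4 to 24.0) in cKO, as did Rrm2 and, by a wider gap than that of Nusap1, Uhrf1 (13 of 45 and 15 of 20 UMIs). The groups being compared share the cells that define them, so these shares are given as a description.

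**Figure D3:**
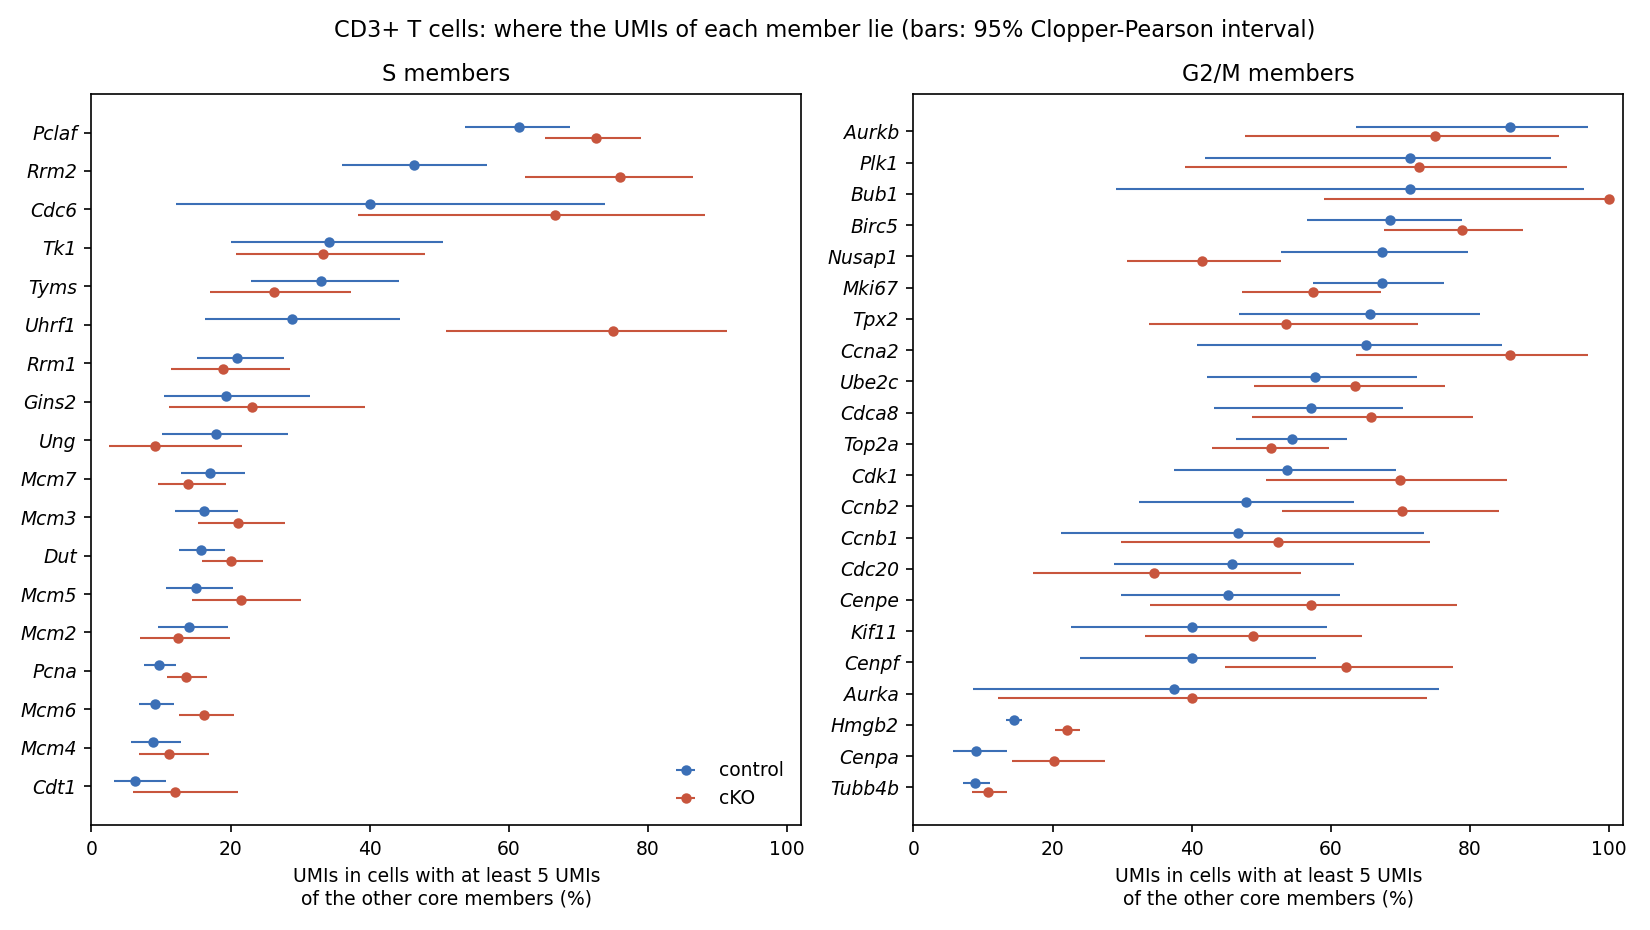
Percent of each member's UMIs that lay in CD3+ T cells with at least 5 UMIs of the other core members, control and cKO, with 95% Clopper-Pearson intervals. Most G2/M members lie above 40%, most S members below 30%, and Nusap1 has intervals of 52.9 to 79.7 and 30.7 to 52.9.

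Cells with a core G2/M call differed in depth between the libraries. Their median before thinning was 2825 UMIs in the control library, where T cells without a call had 5601, and 14555 UMIs in the cKO library, where T cells without a call had 7042.5. In control T cells the core G2/M share was 2.94% among cells of 1500 to 3000 UMIs, 1.08% from 3000 to 6000, 0.566% from 6000 to 12000 and 5.67% above 12000. In cKO T cells it was 5.97%, 0.987% and 0.564% in the first bands and stood at 46 of 418 cells in the last. Both libraries thus had their highest shares at both ends of the depth range, and the middle bands, which hold most T cells, did not differ beyond counting error. The ratio of core G2/M levels was 1.75 (1.38 to 2.18) in the lowest band, where the cKO library had 201 cells, 1.15 (0.93 to 1.43) and 1.15 (0.95 to 1.38) in the middle bands and 1.60 (1.36 to 1.90) in the highest. Core S levels differed by less than counting error in each band, with ratios of 0.95, 1.02, 1.01 and 1.11.

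**Figure D4:**
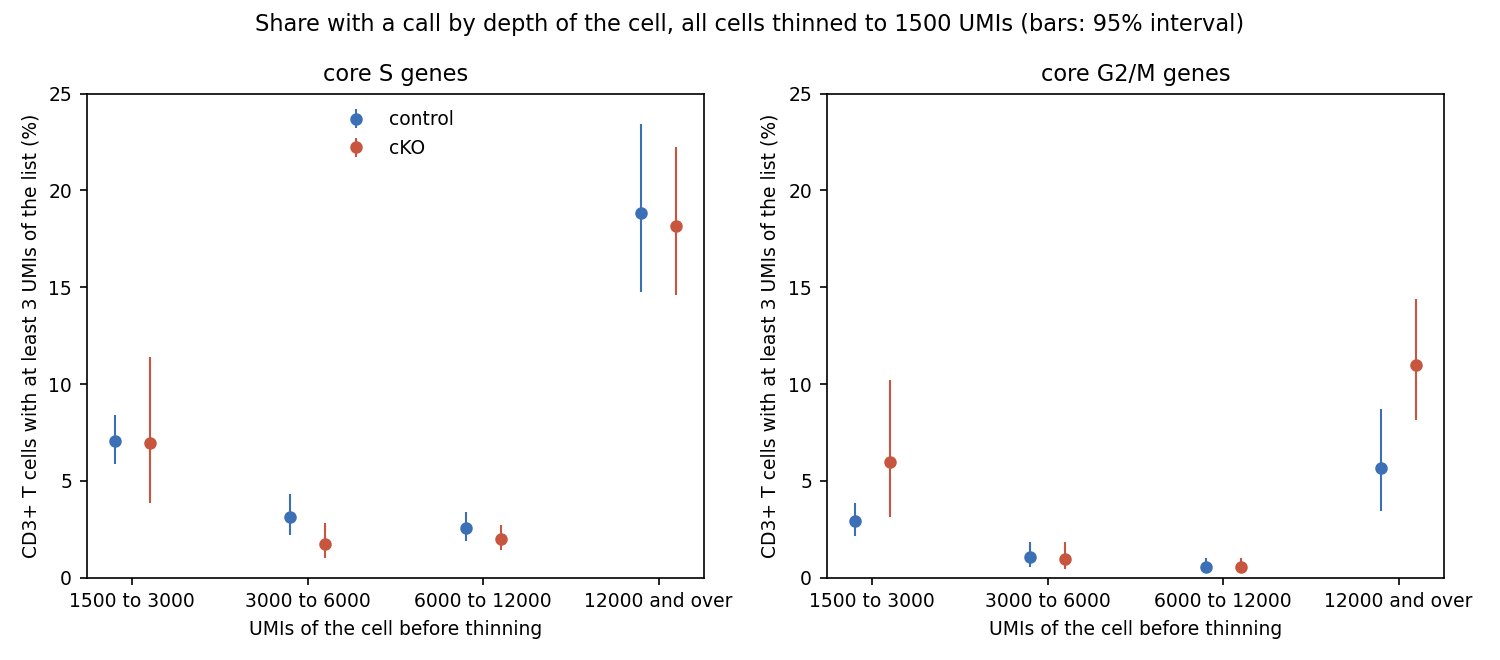
Share of CD3+ T cells with at least 3 UMIs of the core S or core G2/M genes after thinning to 1500 UMIs, by the cell's depth before thinning, with 95% intervals. Both shares are lowest in the middle bands, and above 12000 UMIs a core G2/M call was made in 19 of 335 control and 46 of 418 cKO cells.

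Gut and stromal transcripts were more frequent in the cKO T cells with a G2/M call than in those without a call. Of the 78 called cKO T cells 23.1% carried UMIs from the gut epithelium list, 12.8% one of the gut crypt and stem list (Lgr5, Olfm4, Ascl2, Smoc2), 10.3% one of the stromal list and 8.97% one of the B cell list. In cKO T cells without a call these shares were 10.0%, 0.968%, 0.998% and 4.23%. In the control library 1.10% of the 91 called T cells held a gut epithelium UMI, none a crypt UMI (0 of 91, which allows up to 3.30%) and 19.8% a B cell UMI, against 1.41%, none and 3.68% of cells without a call. Erythroid UMIs were held by 3.30% of control and 3.85% of cKO called cells, against 2.57% and 5.96% of those without a call. For the myeloid or dendritic list these shares were 38.5% and 35.9%, against 34.9% and 41.9%. T cells with a UMI of the gut epithelium, crypt, stromal or B cell list before thinning were then left out. This kept 4518 of 5063 control and 2075 of 3482 cKO T cells. The filter read full counts, so unlike the shares above it was not matched for depth. In the cells left, the core G2/M ratio was 1.14 (1.02 to 1.28) in place of 1.296. Their core G2/M share was 1.64% in control and 1.35% in cKO cells, and Nusap1 stood at a ratio of 2.01 (1.33 to 3.03). At a mitochondrial limit of 5% the core G2/M ratio was 1.10. The part of free RNA or of joined cells in these calls was not tested.

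CD8 T cells, those CD3+ cells with a UMI of Cd8b1, carried more of the G2/M transcripts than other T cells in both libraries. In 734 control and 615 cKO CD8 T cells core S stood at 586 and 576 CPM (0.98, 0.87 to 1.10) and core G2/M at 253 and 369 CPM (1.45, 1.24 to 1.71). The core G2/M share was 3.41% (25 cells) and 5.53% (34 cells), a difference of 2.12 points (−0.08 to 4.49). In CD3+ cells without Cd8b1 it was 1.52% and 1.53%, with levels of 121 and 142 CPM (1.17, 1.05 to 1.302). Without the 5% deepest cells the CD8 ratio was 0.843 (0.673 to 1.05), with 19 and 8 called cells left. The direction differed between depth bands. Above 12000 UMIs, 9 of 118 control and 28 of 145 cKO CD8 T cells had a core G2/M call, and the ratios were 2.001 (1.56 to 2.59) for core G2/M and 1.75 (1.43 to 2.16) for core S. From 1500 to 3000 UMIs, 13 of 252 control and 0 of 26 cKO cells had one, and the ratios were 0.206 (0.020 to 0.612) and 0.515 (0.276 to 0.838). In the bands between, the intervals include 1. Rag1, a recombinase of developing thymocytes, was present in 38 control and 52 cKO CD8 T cells before thinning, and without Rag1+ cells the core G2/M ratio was 1.54 (1.299 to 1.84).

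In CD8 T cells 30 of 40 members reached 10 CPM, and 5 were higher and 4 lower by the size rule, against 20.7% and 4.96% of all 8012 features tested in that class, 25.7% in sum. The interval left out 1 for 6 members above and 4 below, against 25.5% and 6.75% of features, 32.3% in sum. The higher ones were Ccnb2 (8 and 21 UMIs, 3.02, 1.33 to 8.18), Ube2c (8 and 19 UMIs, 2.74, 1.18 to 7.48), Mki67 (26.3 and 49.9 CPM, 1.88, 1.16 to 3.12), Pclaf (41.8 and 77.0 CPM, 1.84, 1.25 to 2.73) and Cenpa (30.9 and 52.0 CPM, 1.68, 1.06 to 2.70). The lower ones were all S genes: Ung (23 and 5 UMIs, 0.28, 0.08 to 0.70), Mcm2 (39.96 and 18.4 CPM, 0.47, 0.25 to 0.82), Rrm1 (33.6 and 18.4 CPM, 0.56, 0.29 to 0.9985) and Mcm5 (47.2 and 27.1 CPM, 0.58, 0.34 to 0.94). Nusap1 stood at 14.5 and 15.2 CPM in these cells, a ratio of 1.05 (0.47 to 2.28), and Hmgb2 at 461 and 614 CPM (1.33, 1.18 to 1.502), higher in cKO where the T cells as a whole had it lower. The S median log2 ratio was −0.12 and the G2/M median 0.52 over members at the floor, beside 0.32 over all features.

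In most other subsets of CD3+ T cells, read from full counts, few cells had a core G2/M call. Among Trav11+ cells 2 of 165 control and 5 of 146 cKO cells had a core G2/M call (1.21% and 3.42%, intervals 0.15 to 4.31 and 1.12 to 7.81). Among cells with a UMI of Klrb1c, the NK1.1 antigen of mature iNKT1 cells, the shares were 0.955% and 0.551%. Among Zbtb16+ cells, which express PLZF, they were 0.697% and 1.73%, and among Tbx21+ cells 1.52% and 1.67%. Cells with a UMI of Fxyd7, of which there were 1609 in the cKO library and 5 in the control library after thinning, had a share of 1.24% in cKO. Trdc+ cells, gamma delta T cells, had shares of 5.19% and 4.62%, and Gzmk+ cells 4.27% and 5.08%. The few Rag1+ CD3+ cells stood at 5.41% (2 of 37) and 9.26% (5 of 54). Intervals of the 2 libraries overlapped in each of these subsets that had more than 5 cells.

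NK cells, with Ncr1 and no CD3 UMI, were rare, 86 control and 39 cKO cells after thinning. Core S stood at 419 and 427 CPM. Core G2/M had 9 UMIs in the control library, no cell with a call (0 of 86, which allows up to 3.49%), and 30 UMIs in the cKO library, of which 20 lay in 1 cell. The ratio of 7.08 (3.40 to 17.6) rests on that cell, and 2 of 39 cKO cells had a call. The cKO NK cells also held the 10 gut epithelium markers at a summed 2684 CPM, with UMIs in 12.8% of cells, against 7.75 CPM in the control. Without cells holding gut, stromal or B cell transcripts, the log2 ratio of all G2/M genes was 1.64 in place of 0.61. Fewer than 39 cKO cells were left for that value, and whether they include the cell with 20 core G2/M UMIs was not looked at.

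Cells with a UMI of Rag1, called DP cells for the double-positive thymocyte stage, had the highest S levels of the T lineage classes. Core S reached 1140 CPM in the 38 control and 1064 CPM in the 57 cKO cells, and core G2/M at 737 and 842 CPM (1.14, 0.77 to 1.71). Core G2/M calls were made in 3 of 38 and 7 of 57 cells, 7.89% (1.66 to 21.4) and 12.3% (5.08 to 23.7). Thinned to 3000 UMIs, the level of all G2/M genes was lower in cKO DP cells, with a log2 ratio of −0.87 in place of 0.22. Without thinning, the core G2/M ratio was 0.668 (0.555 to 0.803). The share of called cells went the other way there, with 5 of 58 control (8.62%) and 14 of 57 cKO cells (24.6%). Those shares were not matched for depth. Of the 38 thinned control cells 29 held no core G2/M UMI and 2 held 5 or more, the highest 19 of the 42 UMIs. The intervals of the DP ratios do not allow for UMIs gathered in single cells. Of the cells with a core G2/M call after thinning, 3 of 3 control and 6 of 7 cKO cells also had a core S call. Top2a stood at 228 and 105 CPM and Mki67 at 87.7 and 93.6 CPM on 5 to 13 UMIs. Ets1 was not lower in the cKO DP cells, at 702 CPM (536 to 903) against 386 CPM (242 to 584).

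**Figure D5:**
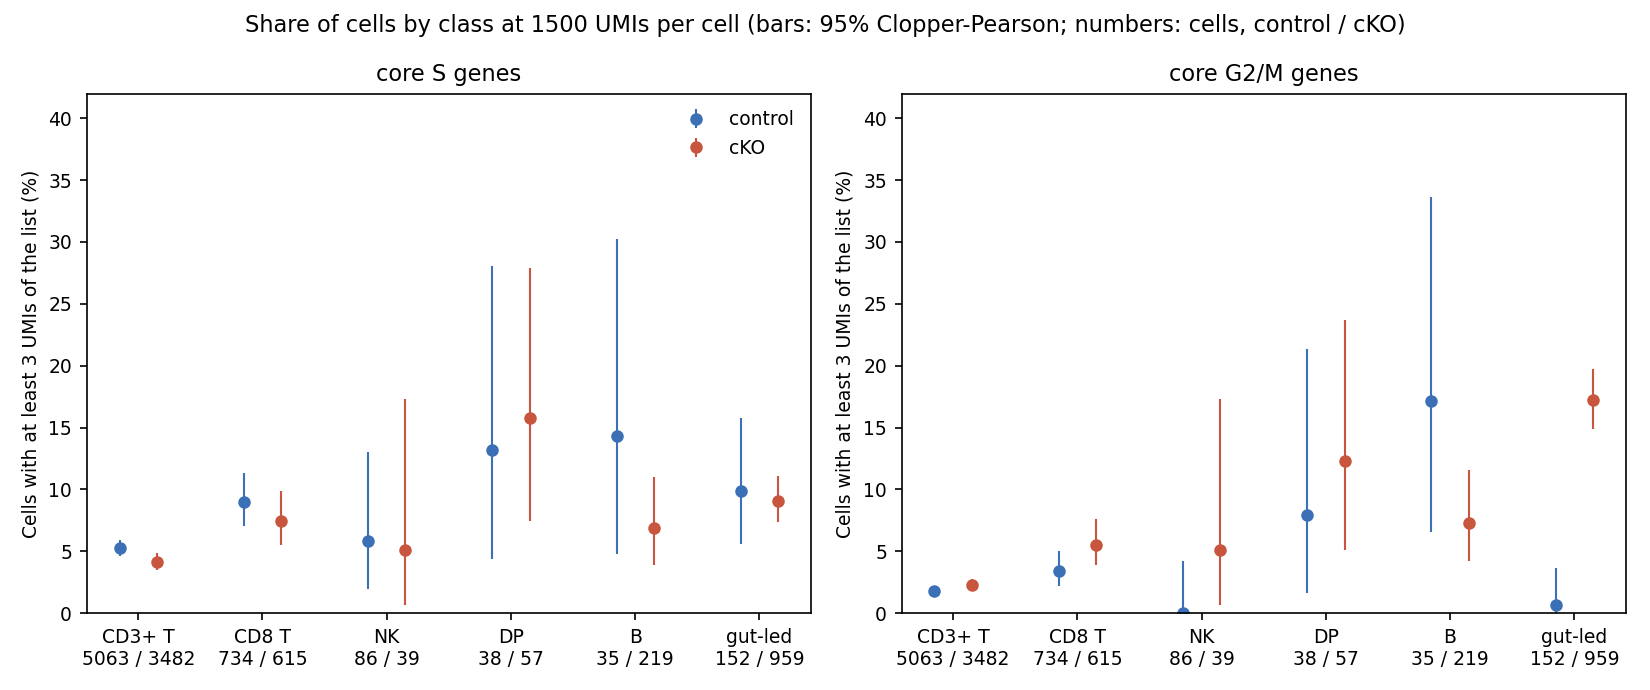
Share of cells with at least 3 UMIs of the core S (left) or core G2/M genes (right) by class, control and cKO, at 1500 UMIs per cell, with 95% Clopper-Pearson intervals and the number of cells under each class. The core G2/M share is 17.2% in the cKO gut-led cells, and in the T, CD8, NK and DP classes the intervals of the libraries overlap.

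Most cells with a G2/M profile in the cKO library were gut-led and not T cells. The 959 gut-led cells of the cKO library had core G2/M at 922 CPM (874 to 973) and a call in 165 cells (17.2%, 14.9 to 19.7). Over all classes the cKO library had 249 called cells, of which 150 were Epcam+ without CD3, 15 carried both Epcam and CD3, and 78 were CD3+ T cells, the last 15 counted in both. The control library had 99 called cells, of which 91 were CD3+ T cells. Taken over all cells, core G2/M was thus 145 CPM in the control and 346 CPM in the cKO library (2.39, 2.23 to 2.57), against 1.296 within CD3+ T cells. Core S in the cKO gut-led cells stood at 580 CPM, near the 561 CPM of the control Epcam+ cells, and 42 of the 165 called cells (25.5%) also had a core S call. Within the class Ube2c stood at 136 CPM, Mki67 and Birc5 at 92.5 CPM each, and Top2a at 82.7 CPM. Hmgb2 made up 30.0% of the G2/M UMIs and Tubb4b 20.4%. Of these cells 38.8% held a UMI of the crypt and stem list. Without thinning, 755 cKO cells had a core G2/M call, and 397 gut-led cells and 323 CD3+ T cells had one, classes that can overlap.

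In B cells, with Cd79a and no CD3 UMI, core G2/M was lower in the cKO library at 1500 UMIs per cell. Core G2/M had a level of 895 CPM over 35 control and 420 CPM over 219 cKO cells, a ratio of 0.466 (0.335 to 0.668). The share of called cells was 17.1% (6 cells) and 7.31% (16 cells), a difference of −9.84 points (−25.6 to 0.14) whose interval takes in 0. Of the 47 control UMIs 14 lay in 1 cell, and the interval of the ratio does not allow for UMIs gathered in single cells. Of the 311 kept cKO B cells 117 also carried Epcam, none of the 55 in the control library did. In B cells that belong to no other class, 34 control and 154 cKO cells, the ratio was 0.307 (0.205 to 0.467). Without thinning it was 0.859 (0.729 to 1.02), an interval that includes 1. Core S stood at 781 and 454 CPM (0.576, 0.409 to 0.842), and at 0.791 (0.537 to 1.22) in B cells of no other class.

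Other genes of the cell cycle, from lists that the members do not belong to, were counted in CD3+ T cells by the same size rule. Of 35 further replication genes 21 reached 10 CPM, 3 were higher and none lower: Pola1, a subunit of DNA polymerase alpha (7.11 and 12.8 CPM), Gmnn, the inhibitor of Cdt1 (21.1 and 34.8 CPM, 1.65, 1.33 to 2.06), and the deubiquitinase Usp1 (38.6 and 60.1 CPM). Of 36 further mitosis genes 12 reached the floor, 5 were higher and none lower: Prc1 (5.27 and 11.1 CPM, 1.39 to 3.24), Smc4 of condensin (84.0 and 164 CPM, 1.95, 1.76 to 2.17), Kif20b (1.80), Cenpw (1.74) and, named as the last of the 5 after its value was seen, Ckap5 (1.61). Of 14 E2F, retinoblastoma and related factors 7 reached the floor and 4 were higher, namely Rbl2 (p130; 56.8 and 131 CPM, 2.31, 2.05 to 2.61), Rbl1 (p107; 2.28), Rb1 (20.1 and 45.6 CPM, 2.26) and Tfdp1 (1.81). Those genes act as repressors of the cycle in resting cells in the case of Rb1, Rbl1 and Rbl2, and as the E2F partner in the case of Tfdp1. These counts stand beside the 20.2% of all features that were higher by the rule.

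The remaining lists were mixed, and their counts too stand beside 20.2% of all features higher and 5.39% lower by the size rule. Of 14 replication-dependent histone genes 8 reached the floor, and these 8 were higher in cKO, with Hist1h2ap at 23.0 and 69.3 CPM (3.003, 2.50 to 3.62), Hist1h4c at 5.66 and 12.3 CPM, Hist1h2ae at 17.2 and 36.0 CPM and Hist1h1b at 14.6 and 28.7 CPM; most transcripts of such genes lack a poly(A) tail, and near-identical copies can share reads. Of 8 G1 genes 7 reached the floor: Cdk6 was higher (18.0 and 29.7 CPM, 1.64), and Myc (52.7 and 24.5 CPM, 0.47, 0.38 to 0.57) and Cdk2 (12.2 and 6.32 CPM, 0.52) were lower. Of 18 arrest and quiescence genes 14 reached the floor: Cdkn2d, an inhibitor of Cdk4 and Cdk6 (57.3 and 93.6 CPM), and Ccng2 (23.4 and 35.8 CPM) were higher, and the antiproliferative Btg2 (816 and 452 CPM, 0.55, 0.53 to 0.58) and Slfn2 (331 and 204 CPM) were lower. Of 17 growth-coupled chromatin and tubulin genes all reached the floor and 1 was higher, Stmn1, which destabilises microtubules (70.6 and 115 CPM, 1.64).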

How the data were processed

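RNA of single YFP+ thymus cells was counted in 2 libraries, 1 per genotype. The deposited matrices hold whole-number UMI counts per gene and barcode; per the labels they come from 3′ droplet libraries, and Cell Ranger 2.1.1 and mm10 are named per the submitters' processing notes, while the matrix headers name software version 3.0.0. For the annotation and aligner settings the sources used here give nothing. Cells with 500 or more genes and no more than 10% mitochondrial UMIs were kept, and doublets were not called. Each cell was thinned without replacement to 1500 UMIs (seed 11). Classes were read from single marker genes on full counts and can overlap. Counts were summed per class and divided by the class total to give CPM. Levels have exact Poisson intervals, shares Clopper-Pearson intervals, share differences Newcombe intervals and ratios exact conditional binomial intervals, with 0.5 UMIs added for the ratio, all at 95% and for counting error only. PCR and cell capture add error that these intervals do not cover. Identifiers were located in GENCODE vM21 on GRCm38, which holds 99.8% of them.

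All 40 members were accounted for, and of each further list up to 4 genes with the largest ratios past the size rule were named, with Ckap5 added as the last of 5. Genes in subsets were named for the subset, not for their values. The members and lists were chosen with earlier results of these data known. The alternatives covered filters, thinning depth and seed, classes, scaling, thresholds and the deepest cells, and their effects are in the closing section. Tools were scipy 1.17.1, numpy 2.4.6, matplotlib 3.10.9 and pandas 2.3.3 under Python 3.11.15.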

Additional observations from a re-analysis of the deposited data

Results flagged for a closer look

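At 1500 UMIs per cell the core G2/M genes differed in opposite directions in T cells and B cells. In CD3+ T cells the cKO/control ratio of their level was 1.296, and in B cells (Cd79a, no CD3) it was 0.466, with 35 control and 219 cKO cells. In the control B cells 14 of the 47 UMIs lay in 1 cell. With 1 library per genotype the difference between the classes was not tested. The opposite directions were not kept under each setting: without the 5% deepest cells the T cell ratio was 0.868 (0.778 to 0.967), and without thinning the B cell ratio was 0.859 (0.729 to 1.02).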

How the results depend on the processing

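Levels here are log2 ratios of cKO over control, shares are differences in percentage points, and both use the full S and G2/M sets. At 1500 UMIs the values were −0.01 (S) and −0.04 (G2/M) for the levels and −1.37 and −0.80 points for the shares in CD3+ T cells. In CD8 T cells they were −0.00, 0.38, −2.28 and 3.99. Of 241 values under 19 settings, 179 stayed within the counting interval of the reported value. In all 55 values changed sign, 7 of them values whose own interval had left out 0, and 32 within the counting interval; the cause was not tested. A mitochondrial limit of 5% gave G2/M −0.16 and −3.04 points in T cells, and S −0.20, G2/M 0.079 and 0.44 points in CD8 T cells. Thinning to 1000 UMIs gave S −0.19, G2/M 0.17 and −0.92 points in CD8 T cells and G2/M −0.16 in DP cells. Thinning to 3000 UMIs gave S 0.15 and 2.11 points and G2/M 0.061 in T cells, S 0.27 and G2/M 8.23 points in CD8 T cells, G2/M −0.11 and −19.3 points in NK cells, and S −0.53 and G2/M −0.87 in DP cells. No thinning gave S 0.22 and 21.3 points and G2/M 0.30 and 23.4 points in T cells, S 0.33 and 18.9 points and G2/M 0.62 and 30.3 points in CD8 T cells, and G2/M −0.33 in DP cells. Classes read from thinned counts gave S −0.66 and G2/M −0.47 in DP cells. Without Hmgb2, Tubb4b and Dut, G2/M was 0.37 and 0.44 points in T cells, 0.54 in CD8 T cells and 2.82 in NK cells. Without the deepest 5% of cells, S was −0.13 and G2/M −0.26 in T cells, and S −0.51, G2/M −0.23 and −3.07 points in CD8 T cells. A cell threshold of 2 UMIs gave G2/M shares of −2.78 points in T and −12.3 in NK cells and an S share of −17.5 in DP cells, and one of 5 UMIs an S share of 0.058 points in T cells. Totals without mitochondrial and ribosomal protein genes gave S −0.22 and G2/M −0.25 in T cells, and S −0.30 and G2/M 0.087 in CD8 T cells. Median-ratio scaling gave S −0.20 and G2/M −0.23, and S −0.26 and G2/M 0.13. Without cells holding gut, stromal or B cell transcripts, an alternative chosen after seeing the data, G2/M in NK cells was 1.64.

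The 2 members past the size rule in T cells became 4 with at least 200 genes, with mitochondrial limits of 5% and 20%, with another thinning seed and with median-ratio scaling. A change of the cells kept also redraws the thinning. With at least 200 genes the T cells numbered 5071 and 3482, against 5063 and 3482, and filter and redraw were not told apart. They became 7 at 3000 UMIs, 15 without thinning, 6 with totals lacking mitochondrial and ribosomal protein genes, 5 at a floor of 5 CPM, and 1 at a floor of 20 CPM or a fold of 2. No paired analysis was possible because there is 1 library per genotype, and for the same reason no library could be left out. Depth limits the cyclins, kinases and the NK and DP classes most, where a few UMIs decide a value.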
